A study of Mus musculus with 4 samples.

Results

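Peritoneal macrophages given palmitic acid, a saturated fatty acid of 16 carbons and 0 double bonds, were compared with vehicle control macrophages across the genes of an Affymetrix array. The comparison uses 2 of the 4 arrays of the study and 11174 of the 19938 genes measured. Genes entered the comparison if any of their 4 values (control, palmitic, oleic and linoleic acid) reached the overall median, log2 7.09; they are called kept genes. Just inside this limit were Cyb561 (highest value 7.0911) and Olfm2 (7.0913), and just outside it Vamp1 (7.0909) and Rab4a (7.0907). A difference is the log2 value of the palmitic acid array minus that of the control array, so that 1.00 is 2-fold, and a gene counts as beyond 1.5-fold at a difference of 0.585 or more either way.

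The cells came from wild type C57BL/6 mice aged 8 to 12 weeks, which had been given 1 mL of 4% thioglycolate into the peritoneal cavity 3 days before the harvest. Thioglycolate is an irritant that draws monocytes into the cavity, and the cells that stayed on the plate after washing were used. The palmitic acid group received 500 µM of the fatty acid bound to bovine serum albumin (BSA) for 6 h, as did the oleic and linoleic acid groups with theirs. The control received 0 µM for 6 h and carries the label of BSA without fatty acid, although the protocol text describes its vehicle as a mixture of ethanol and KOH. RNA from 3 samples was pooled in each group for 1 array, and the labels do not say whether the 3 came from separate mice. Without replicate arrays there is no spread between samples, no interval and no test, and every value below describes a pair of arrays.

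Macrophages take up saturated fatty acids, bind them to coenzyme A and place them in triglycerides, phospholipids and sphingolipids. Saturated chains in the membrane of the endoplasmic reticulum (ER) are known to activate its stress sensors, and saturated fatty acids are known to engage kinase pathways upstream of the AP-1 transcription factors. The integrated stress response slows translation and raises the transcription factors ATF4 and CHOP. The gene classes below follow these steps from lipid handling to the stress pathways, the transcription factors, the secreted proteins and the receptors.

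Markers of macrophages were present in both arrays. Of 17 marker genes measured, 16 were kept, with control values from log2 7.58 to 13.92 and a median of 12.67. The receptor gene Adgre1 lay at 12.98 in the control and 12.83 with palmitic acid, and Csf1r at 12.06 and 11.98. The summed level of the 16 markers, as log2 of the sum of linear values, was 16.74 in the control and 16.69 with palmitic acid. Defining markers of neutrophils (Ly6g), B cells (Cd79a, Ms4a1), T and NK cells (Cd3g, Nkg7) and eosinophils (Prg2) lay below the limit for a kept gene in both arrays, while S100a8, Cd3e and Siglecf, of the same lists, were kept at 8.13, 7.08 and 8.68 in the control. Of the measured markers, 3 of 12 were kept for neutrophils, 3 of 13 for eosinophils and mast cells, 2 of 10 for B cells, 3 of 14 for T and NK cells, 3 of 11 for dendritic cells, 3 of 10 for endothelium and 1 of 3 for erythroid cells. The kept markers reached 11.29 (Csf3r) for neutrophils, 10.17 (Cd22) for B cells, 12.54 (Il7r) for T and NK cells and 10.54 (Hdc) for eosinophils and mast cells in the control, and their part in the results was not tested. Mesothelial and fibroblast markers were partly present: 11 of 18 were kept, and each of the 11 lay below its control value with palmitic acid. The summed level of these 11 was 12.84 in the control and 12.46 with palmitic acid. Pdgfrb (10.04 and 8.74) and Pdgfra (9.19 and 8.33) had the largest differences, -1.29 and -0.86, and Col1a1 differed by -0.15. Whether a class of genes was lower because fewer cells of a type were on the plate or because each cell held less RNA cannot be told apart in such samples.

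In all, 242 kept genes (2.17%) lay 1.5-fold or more above the control in the palmitic acid array and 157 (1.41%) lay as far below it. These shares are given beside every class described below, together with a median difference of 0.0006 and quartiles of -0.12 and 0.14 over the kept genes. The gene and marker lists were written with earlier results of these data known. Their 1765 kept genes hold 157 of the 399 genes beyond 1.5-fold. A class count above the shares can therefore come from how members were chosen, and is a description only. Just past the 1.5-fold limit lay Ccdc93 (0.5861) and Nectin2 (-0.5860), and just short of it Purg (0.5847) and Ly6i (-0.5831). With the genes divided into 4 equal bands of control level, the share beyond 1.5-fold was 1.79%, 3.69%, 4.69% and 4.12% from the dimmest band to the brightest, and the median difference was -0.05, -0.0056, 0.05 and 0.02. Of the 242 higher genes, 236 had their highest value of the 4 arrays with palmitic acid, and 105 lay at least 1.5-fold above each of the other 3 arrays. Of the 157 lower genes, 145 had their lowest value with palmitic acid, and 89 lay at least 1.5-fold below each of the other 3. These counts follow in part from the selection, because the genes were picked by their palmitic acid value. The same holds wherever a gene below is said to have its highest, lowest or extreme value with palmitic acid.

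**Figure D1:**
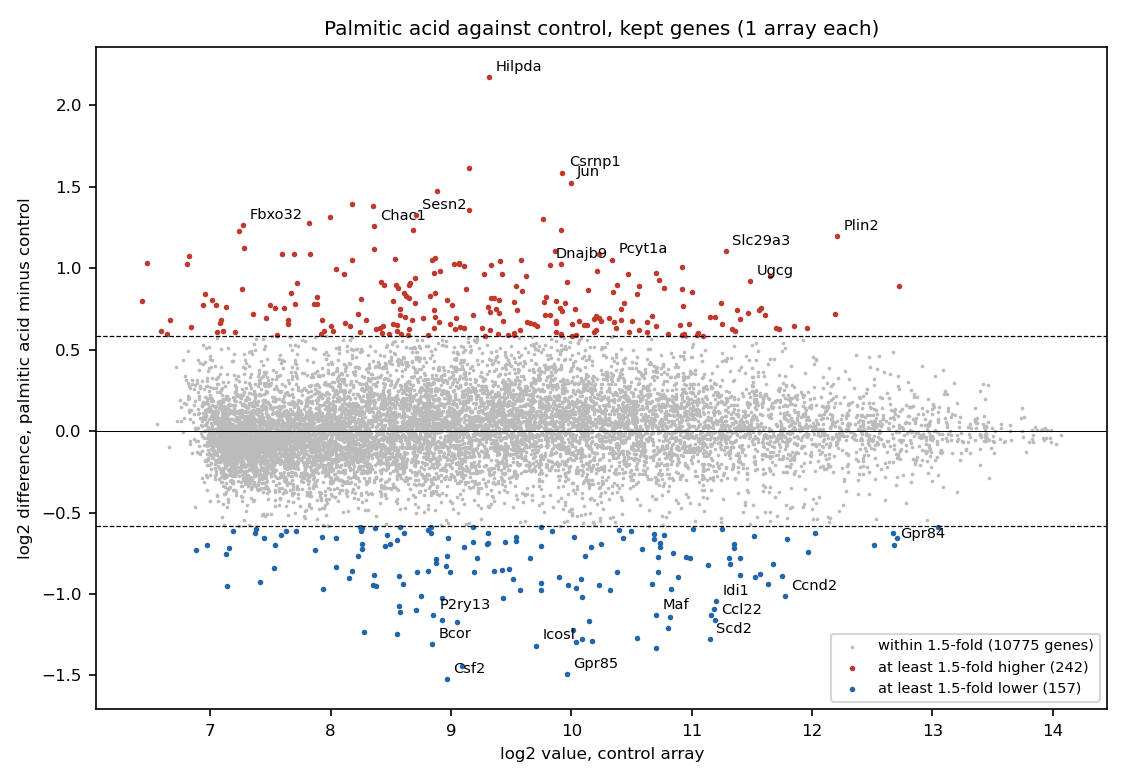
Difference between the palmitic acid and control arrays (vertical axis, log2) against the log2 value in the control array (horizontal axis) for the 11174 kept genes, 1 point each. The 242 higher genes (red) and 157 lower genes (blue) lie past the dashed 1.5-fold lines across most of the range of levels, with Hilpda at the top.

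Several genes that store fatty acids as neutral lipid were higher with palmitic acid, and several that make sterols and unsaturated chains were lower. Of 27 kept genes of lipid droplets and triglyceride turnover, 4 were at least 1.5-fold higher and 0 lower, with a median of 0.11. Hilpda, which codes for an inhibitor of the triglyceride lipase ATGL, lay at log2 9.32 in the control, 11.49 with palmitic, 11.66 with oleic and 9.27 with linoleic acid. The palmitic and oleic acid arrays were thus both high, and the linoleic acid array was at the control's level. The droplet coat gene Plin2 had 12.21, 13.41, 13.43 and 12.32, and was likewise high with palmitic and oleic acid. Mgll, which codes for the lipase that splits monoglycerides, was at 8.58 in the control and 9.33 with palmitic acid, and at 8.65 and 8.62 with oleic and linoleic acid, so that the other 3 arrays lay close together below the palmitic acid array. Plin3, a further coat protein gene, was higher by 0.61, while the triglyceride synthase gene Dgat1 differed by 0.15.

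Among 25 kept genes of fatty acid oxidation, only Cpt1a, the gene of the enzyme that commits long chains to mitochondrial import, was beyond 1.5-fold. It lay at 10.73 in the control, 11.66 with palmitic and 12.08 with oleic acid. The downstream enzyme genes Acadm (-0.11) and Hadha (-0.04) lay close to the control. No kept gene of the 16 for fatty acid uptake, binding and activation was beyond 1.5-fold. The differences were -0.01 for the scavenger receptor and fatty acid translocase Cd36 and 0.33 for the fatty acid binding protein Fabp4.

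Phospholipid and sphingolipid synthesis had few genes beyond 1.5-fold. Of 21 kept genes for phosphatidylcholine and phosphatidylethanolamine, 1 was higher and 1 lower. Pcyt1a, which codes for the rate-limiting enzyme of phosphatidylcholine synthesis, lay at 10.34 in the control, 11.39 with palmitic, 10.46 with oleic and 10.45 with linoleic acid. The palmitic acid array was thus the high one of the 4. Lpcat1, which codes for an acyltransferase that places saturated chains into phosphatidylcholine, was lower, at 9.36 in the control and 8.49 with palmitic acid. Lpcat3, whose enzyme places polyunsaturated chains there, differed by 0.17, and the choline kinase gene Chka by 0.14.

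Of 27 kept genes of ceramide and sphingolipid metabolism, 2 were higher, 0 lower, and the median was 0.02. Ugcg, which codes for the enzyme that turns ceramide into glucosylceramide, lay at 11.49 in the control, 12.41 with palmitic, 11.80 with oleic and 11.60 with linoleic acid. Sphk1, the gene of a kinase that makes sphingosine 1-phosphate, differed by 0.59. Serine palmitoyltransferase, which joins palmitoyl-CoA to serine in the first step of ceramide synthesis, had a difference of 0.39 for its subunit gene Sptlc2 and -0.06 for Sptlc1.

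Sterol synthesis had the largest share of lower genes of the 59 gene lists. Of 20 kept genes of cholesterol synthesis and uptake, 10 were lower by 1.5-fold or more and 0 higher, and the list median was -0.59. Lower genes spanned the pathway from its entry to its last steps. Hmgcs1, at the entry, lay at 11.57 in the control, 10.69 with palmitic, 10.72 with oleic and 11.80 with linoleic acid. Fdft1, the squalene synthase gene, had 11.35, 10.66, 10.49 and 11.43. Lss, whose enzyme closes the sterol rings, lay at 9.90 in the control, 8.77 with oleic and 10.25 with linoleic acid, and differed by -0.89 with palmitic acid. In each of these genes the palmitic and oleic acid arrays were low and the linoleic acid array lay above the control. Cyp51, which removes a methyl group from lanosterol, differed by -0.78, and Msmo1, which acts after it, by -0.63. The upstream regions of a few of the genes above and below are shown where a known element of their pathway was found. RefSeq promoter windows (GRCm38.p6; 250 bases before the start of the gene to 50 after it) were available for 8934 of the kept genes. The sterol regulatory element, searched as TCACNCCAC on both strands, was in the window of 1 of the 7 lower genes of this class that had a window, and in 1.40% of the kept genes with a window. That gene was Hmgcs1, with the match in capitals:
Hmgcs1, chr13:119690169-119690267, forward strand: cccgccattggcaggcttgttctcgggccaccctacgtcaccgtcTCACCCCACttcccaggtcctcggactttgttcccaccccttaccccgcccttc

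Fatty acid synthesis and desaturation had 3 lower and 0 higher genes of 18, with a median of -0.21. Scd2, a stearoyl-CoA desaturase gene, lay at 11.15 in the control, 9.87 with palmitic, 9.46 with oleic and 11.38 with linoleic acid. Elovl6, whose enzyme lengthens palmitate to stearate, differed by -1.01, and Fads2, which starts the desaturation of polyunsaturated chains, by -0.98. Scd1 differed by -0.31 and the fatty acid synthase gene Fasn by -0.55, both within 1.5-fold. Of 15 kept genes of cholesterol efflux and other LXR targets, 0 were higher and 2 lower. These were Mylip (-0.98), whose product marks the LDL receptor for breakdown, and the ubiquitin ligase gene Rnf145 (-0.77). Mylip was also low with oleic acid (10.32 in the control, 9.35 with palmitic and 9.52 with oleic acid), whereas Rnf145 lay at 10.95 in the control, 10.18 with palmitic and 10.93 with oleic acid.

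Nuclear receptors that bind lipids had 2 higher and 1 lower gene of 26. Ppard, which codes for the fatty acid receptor PPAR-delta, lay at 10.41 in the control, 11.16 with palmitic, 10.38 with oleic and 10.50 with linoleic acid, and Pparg differed by 0.51. Rora was higher by 0.59, and the retinoic acid receptor gene Rarg was lower, with a difference of -0.81. Slc29a3, which codes for a nucleoside transporter of lysosomes, lay at 11.28 in the control and 12.39 with palmitic acid. It ranked 22nd among the higher genes. Ranks here and below leave out predicted models, micro-RNA genes and part of the systematic names. Acss1, for a mitochondrial enzyme that activates acetate, went from 9.33 in the control to 10.36 with palmitic acid.

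The integrated stress response had 5 of 31 kept genes higher and 0 lower, with a median of 0.07 and 22 genes above 0. Chac1, whose enzyme degrades glutathione, lay at 8.36 in the control, 9.62 with palmitic, 8.49 with oleic and 8.16 with linoleic acid. Ppp1r15a, the gene of the phosphatase subunit GADD34 that ends the translation block, had 9.86, 10.97, 9.66 and 9.96. Ddit3, which codes for CHOP, had 8.66, 9.57, 8.87 and 8.85. Sesn2, whose product restrains mTORC1, had 8.71, 10.03, 8.85 and 8.86. In all 4 genes the palmitic acid array was the high one. Trib3, a pseudokinase gene downstream of CHOP, was at 7.53 in the control and 8.29 with palmitic acid, and Atf4 differed by 0.43.

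The ATF4 composite element, searched as TGATGNAA on both strands, was in the windows of 2 of these 5 genes, Chac1 and Trib3, and in 2.66% of the kept genes with a window. The Chac1 stretch, with the match in capitals on the opposite strand, was as follows:
Chac1, chr2:119351004-119351101, forward strand: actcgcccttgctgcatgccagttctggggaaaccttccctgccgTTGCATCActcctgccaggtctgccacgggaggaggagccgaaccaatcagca
The match is a description of these letters and not evidence that a factor was bound.

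Other gene classes that include targets of ATF4 had fewer genes beyond 1.5-fold. Of 18 kept aminoacyl-tRNA synthetase genes, which attach amino acids to tRNAs, 0 were beyond 1.5-fold and 17 lay above 0, with a median of 0.16. The differences were 0.05 for Wars and 0.02 for Mars1. On the list of 24 amino acid transporters, Slc38a1, a glutamine carrier, was the only gene beyond 1.5-fold, with 10.03 in the control, 10.78 with palmitic, 10.02 with oleic and 10.00 with linoleic acid. The glutamate carrier gene Slc1a2, which was not on the list, was lower, from 8.26 to 7.54. Slc7a11, the cystine carrier gene, differed by -0.21, Slc7a5 by 0.22 and Slc3a2 by 0.29.

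Most genes of ER folding and of transport out of the ER lay above the control, by less than 1.5-fold in most cases. Of 37 kept genes for ER chaperones, folding and ER-associated degradation, 3 were higher and 0 lower, with 29 above 0 and a median of 0.14. Dnajb9, a co-chaperone gene and target of the XBP1 branch, lay at 9.82 in the control, 10.84 with palmitic, 9.78 with oleic and 9.65 with linoleic acid. Syvn1, which codes for the ubiquitin ligase HRD1 of ER-associated degradation, had 9.71, 10.36, 9.89 and 9.92. The chaperone BiP gene Hspa5 differed by 0.33 from a control value of 13.02, and Xbp1 by 0.10. The array value of Xbp1 does not separate its spliced form. The XBP1 element, searched as TGACGTGG, was in none of the 3 promoter windows of the higher genes, beside 1.12% of the kept genes with a window. COPII and COPI coats carry proteins from the ER to the Golgi and back. Of 39 genes for these coats and for other proteins of the same traffic, 34 lay above 0, with a median of 0.15. Sec24d, a cargo-selecting subunit of COPII, was at 9.13 in the control, 10.00 with palmitic, 9.33 with oleic and 9.34 with linoleic acid, and the Golgi tether gene Golga4 was higher by 0.60. Sar1a (-0.09) and Sec23a (-0.03), which also code for COPII proteins, lay close to the control.

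Chaperones of the cytosol had no gene of 31 beyond 1.5-fold, with 25 above 0 and a median of 0.16. The stress-inducible Hspa1a differed by 0.01 and Dnajb1 by -0.05. The proteasome had no gene of 34 beyond 1.5-fold, with 28 above 0 and a median of 0.11. Its largest difference was 0.44, in Psmd11, a subunit gene of the regulatory lid. Of 66 kept ubiquitin ligase and F-box genes, 3 were higher and 3 lower. Fbxo32, the atrogin-1 gene and a known FoxO target, lay at 7.27 in the control, 8.54 with palmitic, 7.66 with oleic and 7.13 with linoleic acid, and Nedd4l differed by 0.70.

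Ribosome biogenesis and the subunits of the ribosome itself lay on opposite sides of 0. Of 44 kept genes for tRNA modification, ribosome biogenesis and translation initiation, 41 lay above 0, with a median of 0.18. The snoRNP core gene Nop58 lay at 8.25 in the control, 9.06 with palmitic, 8.10 with oleic and 8.32 with linoleic acid, and Nop14, for a small-subunit processing factor, had 8.99, 9.65, 9.09 and 9.12. These 2 were higher by 1.5-fold or more, while Nop56 differed by 0.18 and the cap-binding protein gene Eif4e by 0.49. By contrast, 9 of 54 kept genes for cytosolic ribosomal proteins lay above 0, with a median of -0.06 and none beyond 1.5-fold. Ribosomal protein probes can bind the many pseudogenes of these genes, and so their values are uncertain. Control values ran from 7.10 to 13.45 with a median of 11.38.

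Mitochondrial genes were divided in the same manner. Of 72 kept genes for nuclear-encoded subunits of oxidative phosphorylation, 11 lay above 0, with a median of -0.12, a range from -0.55 to 0.21 and none beyond 1.5-fold. The anchor genes of this class were at or above the class median, with Sdha at 0.09, Atp5b at 0.04 and Ndufa9 at -0.03. In 37 genes of mitochondrial dynamics, import and quality control, 30 lay above 0, with a median of 0.09. Afg3l2, which codes for a protease of the inner membrane, was at 10.13 in the control, 10.78 with palmitic, 10.10 with oleic and 10.28 with linoleic acid. Tfam, the mitochondrial transcription factor gene, differed by 0.30 and Pink1 by 0.17.

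**Figure D2:**
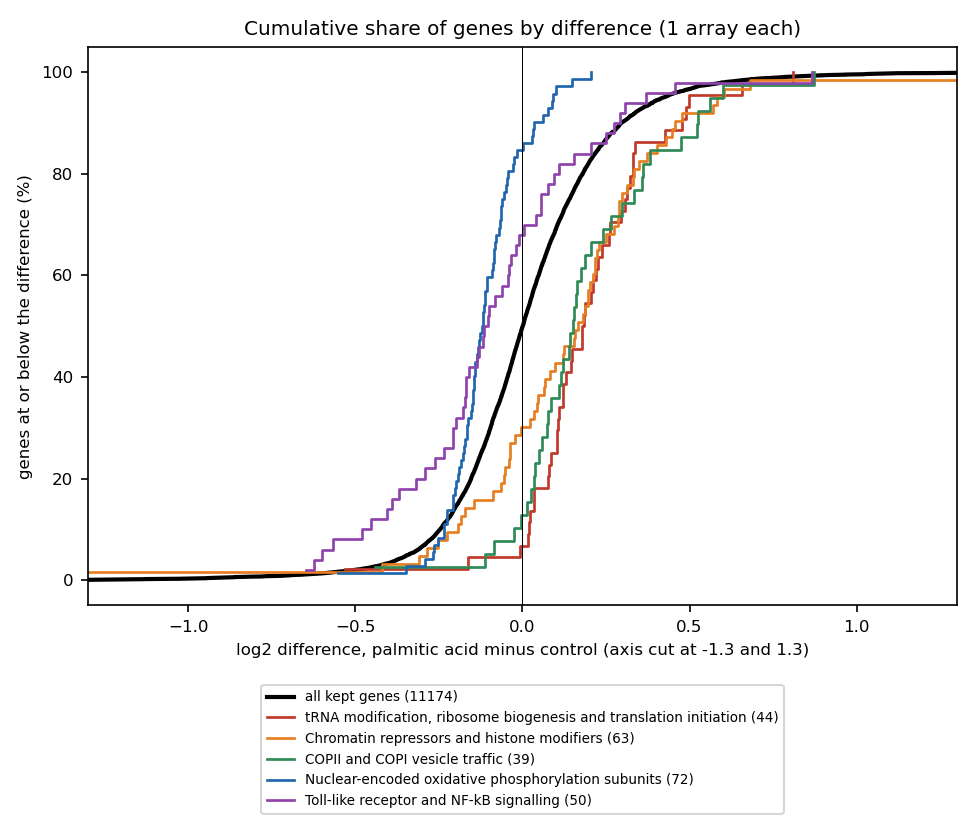
Cumulative share of genes (vertical axis, percent) by the difference between the palmitic acid and control arrays (horizontal axis, log2) for all kept genes and for 5 gene lists, with the number of genes in brackets. The curves for ribosome biogenesis (median 0.18), chromatin (0.17) and vesicle traffic (0.15) lie to the right of all genes, and those for oxidative phosphorylation (-0.12) and Toll-like receptor signalling (-0.11) to the left of them over most of their range.

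Genes for the start of autophagy and for its link to mTORC1 were among the higher genes. Of 61 kept genes for autophagy, folliculin and mTORC1 control, 6 were higher and 0 lower, with 41 above 0 and a median of 0.10. Ulk1, the gene of the kinase that starts autophagy, lay at 8.62 in the control, 9.32 with palmitic, 8.80 with oleic and 8.77 with linoleic acid. Its partner gene Atg13 differed by 0.61, and Atg14, whose product directs the PI3-kinase complex, was at 7.93 in the control and 8.61 with palmitic acid. Nbr1, a cargo receptor gene, had 9.38, 10.13, 9.60 and 9.41, while the receptor gene Sqstm1 differed by 0.29 from a control value of 13.46. Flcn and Fnip2 code for partners in the folliculin complex that couples amino acids to mTORC1 and TFEB. Flcn differed by 0.65, and Fnip2 had 10.47, 11.44, 10.67 and 10.69. On the list of 50 kept genes for lysosomal hydrolases, membrane proteins and the proton pump, 0 were beyond 1.5-fold, and the median was 0.02. Outside that list, single lysosomal genes picked for their values were higher. They were Slc29a3, described above, and the channel gene Tpcn2 (10.35 in the control and 11.20 with palmitic acid). Lysosomal genes off the list were not counted as a class. The differences of Ctsb, Ctsd and Lamp1 lay between -0.06 and 0.01. The TFEB element, searched as TCACGTGA, was in none of the 6 promoter windows of the higher autophagy genes, beside 2.28% of the kept genes with a window. Plekhm1, whose product tethers lysosomes for fusion, ranked 31st among the higher genes, from 9.58 in the control to 10.63 with palmitic acid.

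Antioxidant genes of the NRF2 pathway had 4 of 31 higher and 0 lower, with a median of 0.09. Gclm, the regulatory subunit gene of glutathione synthesis, lay at 11.47 in the control, 12.20 with palmitic, 10.94 with oleic and 11.53 with linoleic acid. The palmitic acid array was the highest and the oleic acid array the lowest of the 4. Srxn1, for a peroxiredoxin reductase, had 11.38, 12.12, 11.23 and 11.52, and the heme oxygenase gene Hmox1 11.70, 12.34, 11.55 and 11.89, in the same order. Mafk, which codes for a small MAF partner of NRF2, had 9.62, 10.58, 9.62 and 9.85. The gene of NRF2 itself, Nfe2l2, differed by -0.44, within 1.5-fold. The antioxidant response element, searched as TGACNNNGC on both strands, was in the windows of each of the 3 higher genes that had a window (Gclm, Srxn1 and Mafk). It is a frequent motif: 16.8% of kept genes with a window held it, as did 46 of 194 higher genes (23.7%) and 16 of 123 lower genes. The Gclm and Mafk stretches, with the match in capitals on the opposite strand, were as follows:
Gclm, chr3:122245378-122245476, forward strand: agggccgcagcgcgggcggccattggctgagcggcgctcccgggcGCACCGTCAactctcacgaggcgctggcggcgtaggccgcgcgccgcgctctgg
Mafk, chr5:139791478-139791535, forward strand: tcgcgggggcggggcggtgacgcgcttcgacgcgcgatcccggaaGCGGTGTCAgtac

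Iron and metal genes had values on either side. Of 26 kept genes of iron handling, 3 were higher and 3 lower. Hamp, which codes for the iron regulatory hormone hepcidin, lay at 7.99 in the control, 9.31 with palmitic, 9.28 with oleic and 8.11 with linoleic acid, and was thus high in both the palmitic and oleic acid arrays. Flvcr1, a heme exporter gene, differed by 0.61. Lower were the ferroxidase gene Cp (10.09 in the control and 8.81 with palmitic acid), the siderophore-binding Lcn2 (11.67 and 10.85) and the metalloreductase gene Steap4 (8.26 and 7.67). Of 20 genes for metallothioneins and zinc transporters, 1 was beyond 1.5-fold. Slc30a1, which codes for a zinc exporter of the plasma membrane, was at 8.65 in the control and 9.55 with palmitic acid. The metallothionein genes Mt1 (-0.37) and Mt2 (-0.54), which bind zinc, were on the other side of 0.

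**Figure D3:**
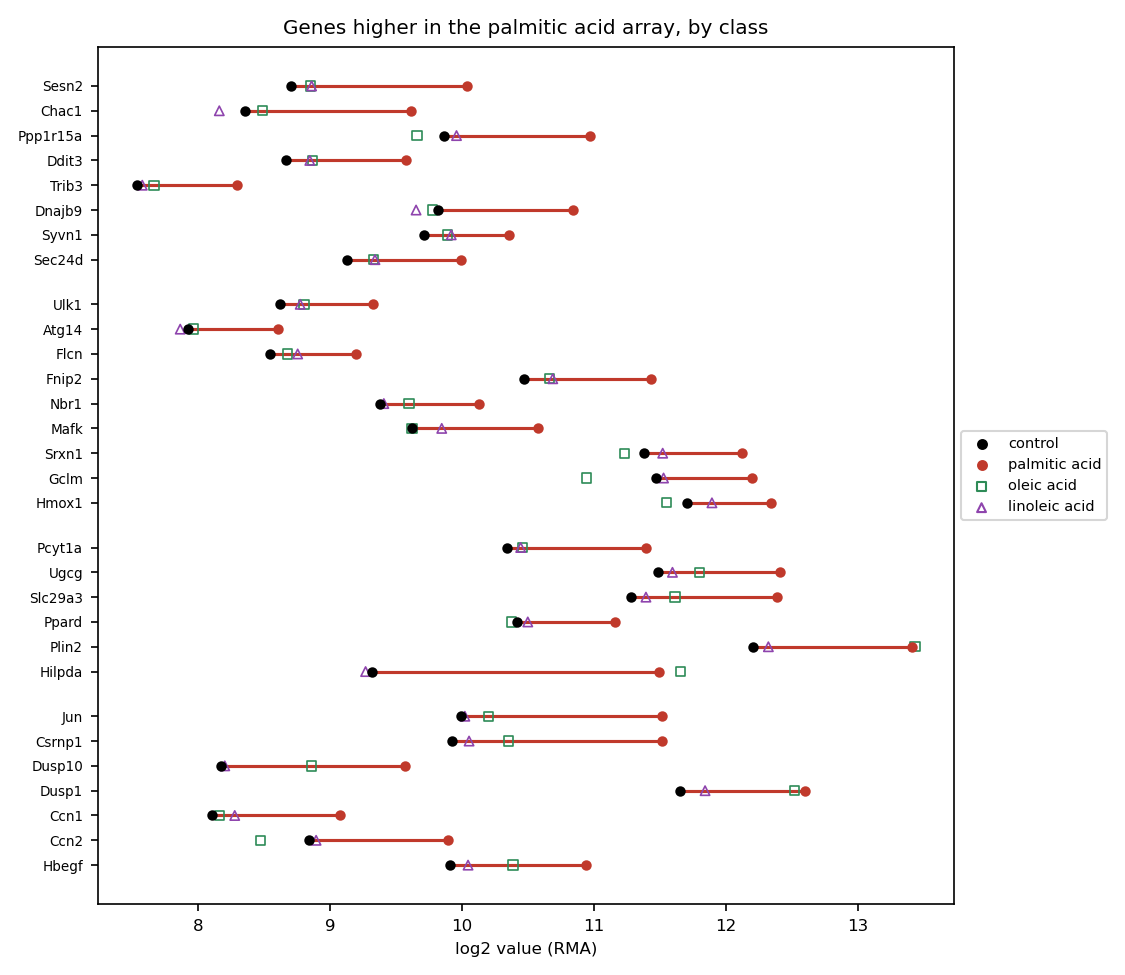
Log2 values of 30 genes that were higher in the palmitic acid array, in blocks for ER and integrated stress, autophagy and antioxidant response, lipid handling, and AP-1 with its feedback genes. Each line joins the control (black) to the palmitic acid array (red), with oleic acid as squares and linoleic acid as triangles. Hilpda, Plin2 and Dusp1 are also high with oleic acid, while Sesn2, Pcyt1a and Dnajb9 are not.

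Among AP-1 genes, Jun stood highest and Maf lowest. Of 18 kept genes, 3 were higher and 2 lower. Jun lay at 9.99 in the control, 11.52 with palmitic, 10.20 with oleic and 10.02 with linoleic acid. Fos was dim, at 6.84 in the control, 7.48 with palmitic and 7.42 with oleic acid, and Atf3 differed by 0.49. Jund was lower, from 10.77 to 10.14. Maf, which codes for the large MAF factor of mature macrophages, had 10.71, 9.58, 10.78 and 11.02, with its lowest value in the palmitic acid array.

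The other immediate early genes had 3 of 36 higher and 3 lower. Csrnp1, which codes for a nuclear protein induced by AXIN1, lay at 9.93 in the control, 11.51 with palmitic, 10.35 with oleic and 10.05 with linoleic acid. Within the GADD45 family, whose products bind stress kinases, Gadd45g was higher (7.67 in the control and 8.52 with palmitic acid) and Gadd45a lower (9.05 and 7.88). Ier2 (-0.95) and Klf7 (-0.81) were lower as well, while Egr1 differed by 0.47, Klf4 by 0.31 and Ier3 by -0.39. The AP-1 site, searched as TGANTCA, was in the windows of 1 of the 4 genes beyond 1.5-fold that had a window, and in 6.38% of the kept genes with a window. That gene was Csrnp1, which held the site at 2 places, in capitals:
Csrnp1, chr9:119983074-119983170, reverse strand: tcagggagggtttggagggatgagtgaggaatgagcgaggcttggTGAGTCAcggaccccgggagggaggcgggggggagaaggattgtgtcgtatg
Csrnp1, chr9:119983024-119983082, reverse strand: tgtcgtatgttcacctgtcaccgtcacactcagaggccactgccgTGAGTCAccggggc

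MAP kinase phosphatases end signals of the kinases upstream of AP-1. Their list, which also holds other feedback regulators and kinases of these pathways, had 3 of 29 genes higher and 1 lower. Dusp10, whose product acts on JNK and p38, lay at 8.17 in the control, 9.57 with palmitic, 8.86 with oleic and 8.20 with linoleic acid. Dusp1 had 11.65, 12.60, 12.52 and 11.84, and was high with oleic acid as well. Dusp8 differed by 0.66. Dusp2 was lower, at 9.11 in the control and 8.40 with palmitic acid.

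Targets of YAP, SRF and TGF-beta had 3 of 28 higher and 1 lower. Ccn1 and Ccn2 code for matricellular proteins that are induced by mechanical signals. Ccn2 lay at 8.84 in the control, 9.89 with palmitic, 8.47 with oleic and 8.89 with linoleic acid, and Ccn1 at 8.11, 9.07, 8.16 and 8.28. Lrrc32, whose product holds latent TGF-beta at the cell surface, had 9.15, 10.51, 9.14 and 9.36. Id3, a repressor of helix-loop-helix factors, differed by -0.84 but was dim, at 7.53 in the control and 6.69 with palmitic acid.

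Among the genes ranked 11 to 60, those of the cytoskeleton included Eps8 (higher by 1.24), whose product caps and bundles actin, Mtss1 (0.98), for a membrane-bending protein, and Fscn1 (-1.02), which codes for the bundling protein fascin. Iqsec1, for an exchange factor of ARF GTPases, was higher by 1.23, Bcar3 by 1.07, and the adaptor gene Gab1 by 0.97. The integrin genes Itga1 (-1.24) and Itgb8 (-1.09) were lower.

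Transcription and chromatin genes had a median above that of all genes. Of 63 kept genes for chromatin repressors and histone modifiers, 3 were higher, 1 lower and 44 above 0, with a median of 0.17. Rsbn1, which codes for a nuclear protein of chromatin, lay at 9.15 in the control, 10.76 with palmitic, 9.50 with oleic and 9.33 with linoleic acid. The methyltransferase gene Kmt2a differed by 0.68 and the deacetylase gene Sirt1 by 0.60. Bcor, which codes for the BCL6 corepressor, was lower, with 8.84, 7.54, 8.72 and 8.99. Of 42 genes for RNA-binding and mRNA decay proteins, 32 lay above 0, with a median of 0.11. Zfp36l2, whose product binds AU-rich elements in mRNA, was at 11.58 in the control and 12.33 with palmitic acid, and Cnot4, of the deadenylase complex, differed by 0.63. Cebpd (8.57 in the control and 7.46 with palmitic acid), Creb3l1 (10.83 and 9.86) and Pou2f2 (8.99 and 8.13), which code for transcription factors, ranked 24th, 37th and 60th among the lower genes. Zbtb10 (7.28 and 8.41) and Zfp945 (8.18 and 9.23), which code for zinc finger proteins, ranked 19th and 33rd among the higher genes. On the list of 15 circadian clock genes none was beyond 1.5-fold, and the median was 0.12. Rora, counted with the nuclear receptors, and Cipc, on neither list (8.87 and 9.71), also act in the clock and were higher.

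**Figure D4:**
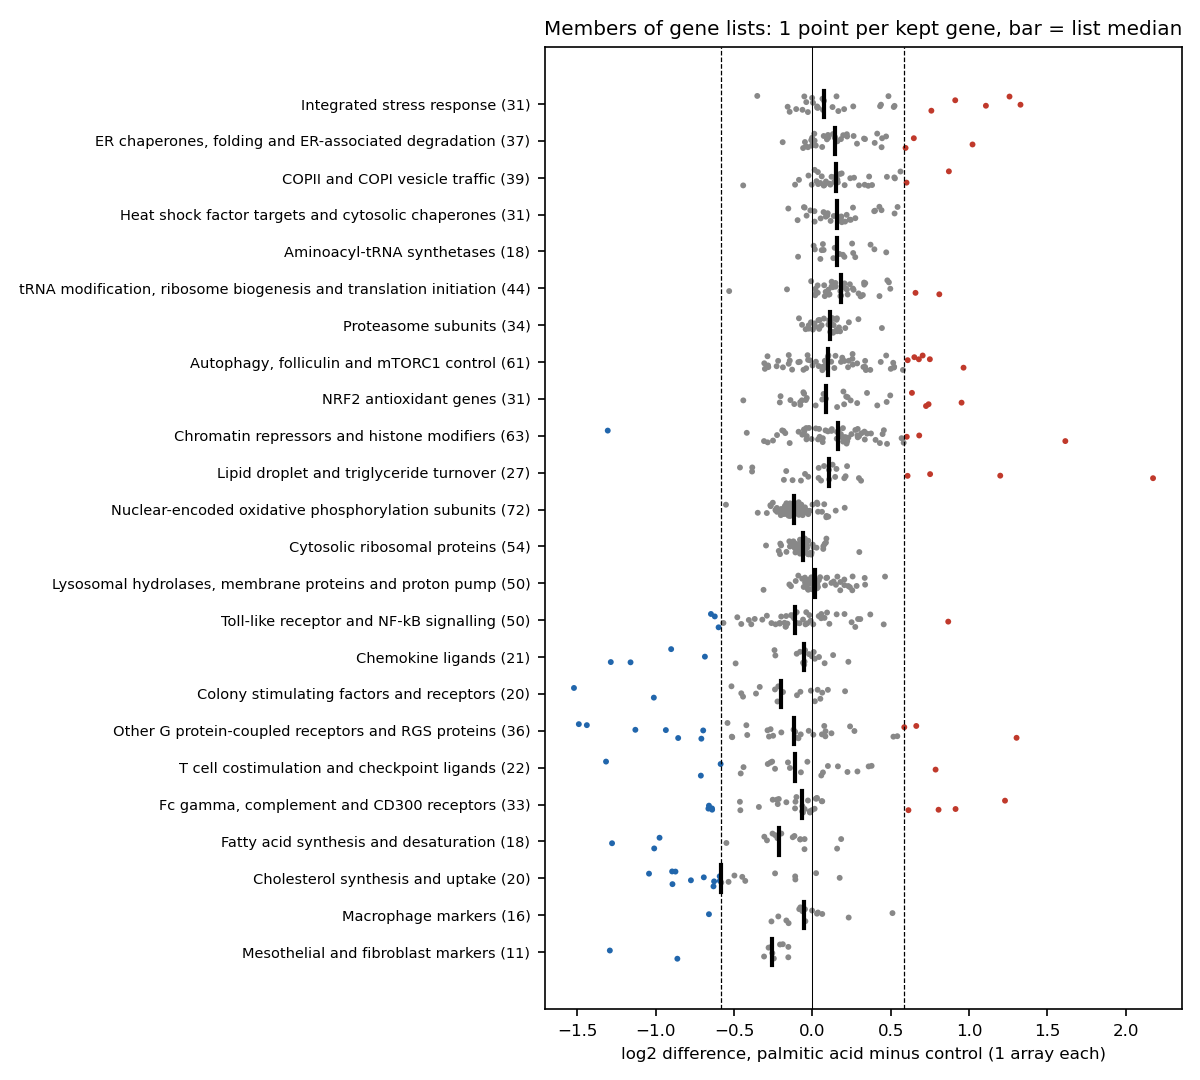
Difference between the palmitic acid and control arrays (horizontal axis, log2) for the members of 24 gene lists, 1 point per kept gene, with the number of genes in brackets and the median as a black bar. Dashed lines mark 1.5-fold. Cholesterol synthesis has its median at -0.59. The stress, folding and translation lists have medians between 0.07 and 0.18, apart from cytosolic ribosomal proteins at -0.06.

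Cytokine and chemokine genes of macrophage activation were not higher as a group, and several were lower. Of 27 kept interleukin, TNF family and other cytokine genes, 1 was higher and 3 lower. Hbegf, an EGF receptor ligand gene, lay at 9.91 in the control, 10.94 with palmitic, 10.39 with oleic and 10.05 with linoleic acid. Il18, whose product is activated by the inflammasome, had 10.72, 9.86, 10.35 and 10.85. Il6 lay at 13.05 in the control and 12.46 with palmitic acid, a difference of -0.59 that is close to the 1.5-fold limit. Il1b (-0.13) and Tnf (0.09) were near the control, at 13.78 and 13.76 there.

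Growth factors of the CSF group and their receptors shared a list with signalling, transcription factor and cyclin genes. Its 20 kept genes had a median of -0.20, with 6 above 0. Csf2, which codes for GM-CSF, lay at 8.97 in the control, 7.44 with palmitic, 8.56 with oleic and 8.78 with linoleic acid, the largest downward difference of any kept gene at -1.52. Csf1 differed by -0.36 and its receptor gene Csf1r by -0.08. Ccnd2, a cyclin gene downstream of CSF1 signals, had 11.77, 10.76, 12.29 and 11.82. Kitl, which codes for stem cell factor, was higher, at 7.83 in the control and 8.91 with palmitic acid, and ranked 23rd.

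Chemokine ligands had 0 of 21 higher and 4 lower, with a median of -0.05. Cxcl9, a ligand of CXCR3 and target of interferon gamma, lay at 10.17 in the control, 8.88 with palmitic, 10.09 with oleic and 10.56 with linoleic acid, and Cxcl11 at 8.15, 7.25, 8.26 and 8.21. Ccl22, a ligand of CCR4, had 11.19, 10.03, 10.95 and 11.33, and Ccl17, which binds the same receptor, 9.31, 8.62, 9.27 and 9.56. All 4 had their lowest value in the palmitic acid array. The monocyte attractant Ccl2 and the neutrophil attractant Cxcl2 differed by less than 0.1 either way, with 12.97 in both arrays for Ccl2 and 13.73 and 13.81 for Cxcl2. Of 17 markers of alternative activation, 0 were higher and 2 lower, Ccl22 and Ccl17, with Arg1 at -0.15 and Mrc1 at 0.23. Of 31 interferon-stimulated genes, 1 was higher, Mx2 (10.51 in the control and 11.18 with palmitic acid), and 0 were lower, so that lower Cxcl9 and Cxcl11 were not shared by this list.

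More genes of innate sensing lay below the control than above it. Of 50 kept genes of Toll-like receptor and NF-kB signalling, 16 lay above 0, with a median of -0.11, 1 higher and 3 lower gene. The adaptor genes of the TRIF branch were on opposite sides: Ticam1, for TRIF, differed by 0.87, and Ticam2, for the bridging adaptor TRAM, by -0.65. Tlr8 differed by -0.62 and Bcl3, for a nuclear IkB protein, by -0.60. Tlr4 (-0.17), Tlr2 (-0.06) and Nfkbia (-0.04) were within 1.5-fold. In the inflammasome list of 22 genes, the pyrin gene Mefv lay at 10.04 in the control and 9.08 with palmitic acid and the adaptor gene Pycard at 9.45 and 8.77, while Pstpip1, whose product binds pyrin, was higher (9.59 and 10.45). Nlrp3 differed by -0.20, Casp1 by -0.05 and Gsdmd by -0.23.

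Of 36 kept genes for other G protein-coupled receptors and RGS proteins, 7 were at least 1.5-fold lower and 3 higher, with a median of -0.12. Gpr85, an orphan receptor gene, lay at 9.97 in the control, 8.48 with palmitic, 9.20 with oleic and 10.00 with linoleic acid. Gpr18, which codes for a receptor of lipid mediators, had 9.09, 7.65, 9.18 and 9.14. The nucleotide receptor genes P2ry13 (8.85, 7.72, 8.85 and 8.99) and P2ry14 (10.74, 10.03, 10.96 and 10.79) had their lowest value in the palmitic acid array. Gpr84, the receptor gene for medium-chain fatty acids, lay at 12.68 in the control and 11.98 with palmitic acid. The higher genes were the serotonin receptor genes Htr2a (9.76, 11.07, 9.61 and 9.91) and Htr2b (difference 0.66), and P2ry2 (0.59), whose product binds ATP and UTP. Prokr1, a prokineticin receptor gene, was higher as well, from 7.60 to 8.68, and ranked 24th.

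Lipid mediator receptors were also among the lower genes. Ptger4, a prostaglandin E2 receptor gene, lay at 8.92 in the control, 7.76 with palmitic, 8.78 with oleic and 9.07 with linoleic acid, and the leukotriene receptor gene Cysltr1 at 8.87 in the control, 8.09 with palmitic and 9.04 with oleic acid. The synthesis genes Ptgs2 (-0.07) and Ptges (0.17) were within 1.5-fold. Ch25h, which codes for the enzyme that makes 25-hydroxycholesterol, ranked 30th among the lower genes, from 8.92 to 7.90. On the list of 9 kept chemokine receptors no gene was beyond 1.5-fold, with Ccr1 at a difference of 0.45, while Cxcr1, which was not on it, lay at 7.09 in the control and 7.77 with palmitic acid. No gene of 42 in cyclic nucleotide and phosphoinositide signalling was either.

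**Figure D5:**
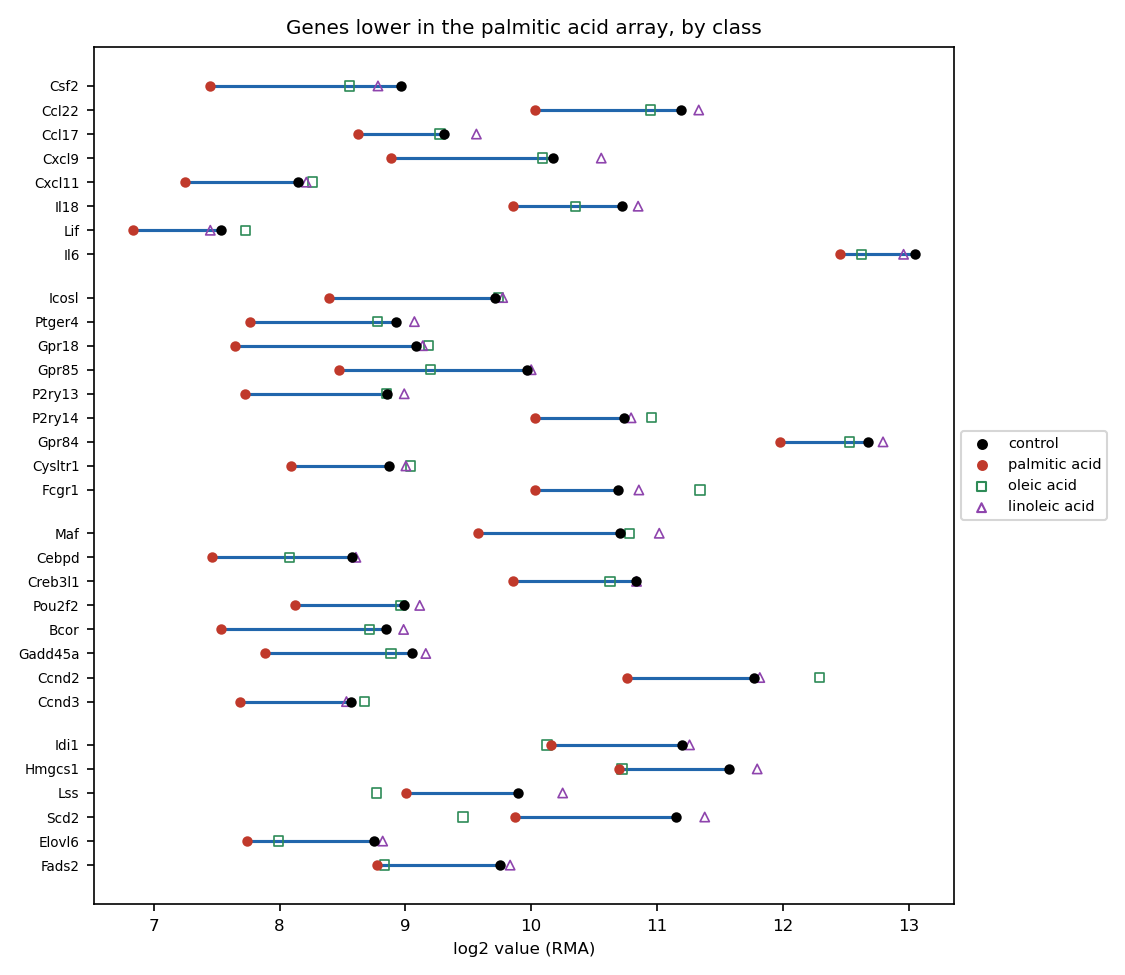
Log2 values of 31 genes that were lower in the palmitic acid array, in blocks for secreted signals, receptors and ligands, transcription and cell cycle, and sterol and fatty acid synthesis. Each line joins the control (black) to the palmitic acid array (red), with oleic acid as squares and linoleic acid as triangles. In the last block the oleic acid array is low as well, while Icosl, Gpr18 and P2ry13 are near the control's level with oleic and linoleic acid.

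Immune receptors of the cell surface had differences in both directions. Of 33 kept genes for Fc gamma, complement and CD300 receptors, 4 were higher and 4 lower. The CD300 family codes for receptors that bind lipids on membranes. Cd300lb lay at 7.24 in the control, 8.47 with palmitic, 8.01 with oleic and 7.46 with linoleic acid, Cd300lf at 8.42, 9.33, 8.85 and 8.50, and Cd300a at 8.96, 9.77, 9.91 and 8.82. These 3 were also above the control with oleic acid, and since the genes are alike in sequence, probes may not separate them. Lower were the inhibitory Siglece (8.47 in the control and 7.83 with palmitic acid), the high-affinity Fc receptor gene Fcgr1 (10.69 and 10.03) and Clec5a (11.79 and 11.12). Fcgr2b differed by -0.34 and Fcgr3 by -0.25. The paired receptor genes Pilrb1 (11.16 and 10.03) and Pilrb2 (10.23 and 9.29) ranked 22nd and 44th among the lower genes, and as close copies they may share signal.

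Costimulatory genes had 1 of 22 higher and 3 lower. Icosl, the gene of the ICOS ligand, lay at 9.71 in the control, 8.39 with palmitic, 9.74 with oleic and 9.77 with linoleic acid. Cd86 was higher, at 9.94, 10.73, 10.35 and 10.18, while Cd80, whose product binds the same T cell receptors, differed by -0.26. Slamf9 differed by -0.71. Of 19 antigen presentation genes, 0 were beyond 1.5-fold, with H2-Aa at -0.0039, Cd74 at 0.08 and Ciita at -0.11. Of 24 scavenger and efferocytosis receptors, 0 were beyond 1.5-fold, with Mertk at 0.51, Msr1 at -0.13 and Marco at -0.24. The histidine decarboxylase gene Hdc, placed here on the eosinophil and mast cell list, lay at 10.54 in the control and 9.27 with palmitic acid. The other genes of that list that were kept, Siglecf and Kit, differed by -0.10 and -0.45, and 10 of its 13 measured genes were below the limit.

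Signalling genes of lymphoid and myeloid receptors were among the lower genes ranked 11 to 60. Samsn1, for an adaptor that restrains immune receptors, lay at 10.14 in the control, 8.98 with palmitic, 10.19 with oleic and 10.23 with linoleic acid. Rasgrp1, for an exchange factor of RAS, had 10.82, 9.67, 10.85 and 10.91, and Sla, for a SRC-like adaptor, 11.53, 10.64, 11.29 and 11.52. Each had its lowest value in the palmitic acid array. Ms4a4c (11.63 and 10.70) and the pantetheinase gene Vnn3 (10.02 and 8.79) were lower too.

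Secreted proteases and matrix proteins had 3 of 40 higher and 4 lower, with a median of -0.11. Plau, the urokinase gene, was higher, at 10.38 in the control, 11.28 with palmitic, 10.59 with oleic and 10.44 with linoleic acid, and Plat, which codes for the tissue-type activator of the same substrate, was lower, at 8.81, 7.95, 8.88 and 8.70. Adamts4, an aggrecanase gene, differed by -0.97, its substrate gene Vcan by -0.72 and Tgfbi by -0.69. Fn1 lay at -0.0022, Timp1 at -0.38 and Mmp9 at -0.36. The mesothelial and fibroblast markers were lower in the same arrays (summed level 12.84 and 12.46), and their part in the values of matrix genes was not tested.

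Cell cycle and survival genes had values in both directions. Of 34 kept genes for G1 cyclins and CDK inhibitors, 3 were higher and 2 lower. Plagl1, which codes for a zinc finger protein that halts the cycle, lay at 8.88 in the control, 10.36 with palmitic, 9.04 with oleic and 9.04 with linoleic acid, and Rgcc, a cell cycle regulator gene, at 8.35, 9.73, 8.51 and 8.34. The cyclin gene Ccne1 was higher by 0.67, and Ccnd2 and Ccnd3 were lower, with differences of -1.01 and -0.89. In the 27 genes of replication and mitosis, the licensing factor gene Cdt1 (8.53 in the control and 9.59 with palmitic acid) and the checkpoint kinase gene Bub1b (9.11 and 10.12) were higher. The thymidylate synthase gene Tyms was lower (8.04 and 7.39), and Mki67, the proliferation marker, differed by -0.45, with 10.57 in the control, 10.12 with palmitic and 9.99 with oleic acid.

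Of 32 genes of the BCL2 family and death control, 1 was higher and 1 lower. Dapk1, a death-associated kinase gene, differed by 0.64, and the death receptor gene Fas lay at 9.48 in the control and 8.63 with palmitic acid. Mcl1 and Bcl2l11 differed by 0.15 and -0.14. In the p53 target list of 23 genes, Sesn2 was higher, Gadd45a and Fas were lower, and Mdm2 differed by 0.49.

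Insulin and FoxO genes showed 1 higher and 2 lower genes of 31. Arrdc3, which codes for an alpha-arrestin, lay at 8.28 in the control, 7.04 with palmitic, 9.35 with oleic and 8.02 with linoleic acid, so that the palmitic and oleic acid arrays lay on opposite sides of the control. Its relative Txnip differed by -0.33, Trib1 by -0.59 and Irs2 by 0.21. On the list of 40 genes of HIF targets and glycolysis, the lactate carrier gene Slc16a1 was the only gene beyond 1.5-fold, with 8.77 in the control and 9.47 with palmitic acid. The enolase gene Eno2, which was not on the list, was higher by 0.71. Slc2a1 (0.10), Ldha (0.05) and Hif1a (0.03) were close to the control. Of 14 genes of polyamine metabolism 1 was higher. Smox, the spermine oxidase gene, lay at 9.58 in the control, 10.20 with palmitic, 10.82 with oleic and 9.75 with linoleic acid. On the list of 36 genes of the TCA cycle, one-carbon and nucleotide metabolism, 1 was beyond 1.5-fold, Upp1, which codes for uridine phosphorylase, at 10.08 in the control and 9.17 with palmitic acid. Of nucleotide enzymes not on that list, Tyms and the guanine deaminase gene Gda differed by -0.66 and -0.65. Of 40 ion channel and pump genes, Lrrc8d, a subunit gene of the volume-regulated anion channel, was higher (10.92 and 11.79), and the potassium channel genes Kcna3 (-0.66) and Kcnj2 (-0.60) and the calcium channel gene Orai2 (-0.60) were lower.

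The lists held 157 of the 399 genes beyond 1.5-fold, and the other 242 were in none of them. Beside those named above, the genes ranked 11 to 60 included Armcx6 (7.82 in the control and 9.09 with palmitic acid), Rassf3 (8.36 and 9.48), Rcbtb1 (10.23 and 11.32), Mtmr10 (9.40 and 10.45) and Tnfrsf26 (9.07 and 10.09) on the higher side. Ifrd1 (10.70 and 11.67), which codes for a transcriptional coregulator of differentiation, and Metrnl (8.86 and 9.83), which codes for a secreted protein of immune and fat tissue, belonged to the same group. On the lower side stood Parp8 (11.75 and 10.86), Fnbp1l (11.40 and 10.52), Stard7 (9.52 and 8.61), Cks2 (8.38 and 7.42) and Smpdl3b (8.72 and 7.85). Stard7 codes for a phosphatidylcholine transfer protein of mitochondria and Smpdl3b for a phosphodiesterase of lipids in the plasma membrane. In each of these 12 genes the palmitic acid array held the extreme value of the 4.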

How the data were processed

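Values deposited by the authors are log2 values made with RMA, a background correction, quantile normalisation and probe summary, as the submitters' processing notes name it. For its version and build, not given in the sources used here, no value is stated. RNA had an integrity number above 8.0, and 100 ng was labelled, per the labels' protocols. There were 35556 probes and 4 arrays, and 0 columns of unknown samples.

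The platform annotation listed 23410 probes, 21789 with 1 gene (21698 found by ID in a RefSeq table of GRCm38.p6, 0 symbols updated) and 1621 with several. Probes were averaged for the 999 genes with more than 1. The level limit is one of brightness, not a detection call. The number of arrays limits the precision. Calculations used Python 3.11.15, pandas 2.3.3 and numpy 2.4.6, and the counting was tested on simulated data.

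The 59 gene lists and 9 marker lists held 2125 genes, of which 1981 were measured, 1765 kept and 144 not analysed here. The result of 1 list is not reported here. Members, lists and tests were chosen with earlier results of these data known. Named were, per list, up to 3 anchor genes and up to 8 members beyond 1.5-fold, and genes ranked 11 to 60 each way. Not every kept anchor gene or ranked gene is named. Marker genes given for other cell types and genes said to be on no list were chosen after values were seen. So were the gene Kit, micro-RNA genes and name groups. The 7 alternatives are centring, repeated quantile normalisation, no filter, a limit at the 75th percentile, a limit on the palmitic acid and control arrays alone, the brightest probe per gene, and dim values set to the median.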

Additional observations from a re-analysis of the deposited data

Results flagged for a closer look

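In 4 genes the palmitic acid array lay at least 1.5-fold below the control and the oleic acid array at least 1.5-fold above it. The differences with palmitic and oleic acid were -1.24 and 1.07 for Arrdc3, -0.63 and 0.60 for Cyp1b1, which codes for a cytochrome P450 enzyme, -0.66 and 0.65 for Fcgr1, and -0.63 and 0.71 for Slc16a6, which codes for a monocarboxylate carrier. These differences share the control array and were not tested against each other. Between the palmitic and oleic acid arrays themselves, the difference was -2.31 for Arrdc3, -1.23 for Cyp1b1, -1.31 for Fcgr1 and -1.34 for Slc16a6.

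Probes with no listed gene were not used for the comparison. Of 5620 such probes with a highest value at or above the same limit, 657 (11.7%) lay 1.5-fold or more above the control in the palmitic acid array and 71 (1.26%) as far below it, beside 2.17% and 1.41% of genes. The higher ones were nearly all among 3532 probes whose ID number lies below the lowest listed ID, with 630 higher (17.8%), 43 lower and a median difference of 0.18. For the same probes, oleic acid gave 30 higher, 120 lower and a median of -0.04, and linoleic acid 269, 69 and 0.14. Of the other 2088 probes, 27 were higher and 28 lower with palmitic acid, with a median of -0.08. The largest differences were those of probes 10340899 (2.00) and 10340430 (1.85) upward and 10341691 (-1.95) and 10344099 (-1.68) downward. What these probes measure is not known from the sources used here: they may be control or intron probes of the array, so their values are not read as gene expression. Probes listed with several genes had 6 of 848 higher and 3 lower.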

How the results depend on the processing

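Over the 7 alternatives, the count of genes at least 1.5-fold higher ranged from 195 to 259 and of lower genes from 111 to 184, each within 1.5 times of the value given. The higher share of genes beyond 1.5-fold was 51.7% after a repeated quantile normalisation, beside 60.7%. Of the 399 genes beyond 1.5-fold, 352 were still so after that step, 391 after centring, 397 with the brightest probe per gene and 378 with dim values set to the median, and 0 reversed under these. Genes within 1.5-fold after the repeated normalisation included Atg13, Flvcr1, Golga4, P2ry2, Pdia4, Plin3, Rnf144b, Rora, Sirt1, Smox and Sphk1. With dim values set to the median, Fos (0.39), Id3 (-0.44), Kcnj2 (-0.29) and Lif (-0.44) were within it. Lower immediate early genes were 5 after the repeated normalisation, beside 3, and higher Fc, complement and CD300 genes were 2 with the limit at the 75th percentile, beside 4. The 19 other counts of list members that moved by over 1.5 times moved by 1 gene. Medians of lists within 0.06 of 0 can lie on either side of it. The median for oxidative phosphorylation ranged from -0.17 to -0.11 and that for ribosome biogenesis from 0.14 to 0.19. Several small upward shifts shrank after the repeated normalisation. Genes above 0 were 24 of 37 for mitochondrial dynamics, beside 30, and 24 of 37 for ER folding, beside 29. For aminoacyl-tRNA synthetases they were 14 of 18, beside 17. The chromatin median was 0.10, beside 0.17, while that for cytosolic ribosomal proteins moved further below 0, to -0.08 from -0.06. No paired analysis was possible because each group holds 1 array. Signal over background limits the dimmest genes, and 8764 genes under the level limit were not compared.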

Other observations

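Families of genes that share the start of their names were counted after their values were seen, as a description. The 32 kept genes with names in Col, mostly collagens, had 1 gene in which palmitic acid lay above the control (3.12% of them), with a median of -0.14 and 0 beyond 1.5-fold, and the mesothelial and fibroblast markers overlap with them. All 10 kept membrane protein genes with names in Ms were below 0, with a median of -0.19. On the other side, the 32 Ddx genes, which code for RNA helicases, had a median of 0.15 with 87.5% above 0, and the 10 Utp genes, for small-subunit processome proteins, 0.17 with 100.0% above 0. The 218 Zfp genes, for zinc finger proteins, had 7 higher and 0 lower, with a median of 0.07.

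Genes of micro-RNAs are measured on this array through their precursor or host transcript, not the mature form. Of 81 kept, 2 were higher, 1 lower, and the median was -0.05. Mir350 lay at 7.49 in the control, 8.27 with palmitic, 7.94 with oleic and 7.76 with linoleic acid, and Mir30b at 6.47, 7.51, 6.49 and 6.60. Mir146, the gene of miR-146a, which restrains Toll-like receptor signalling, lay at 7.19 in the control, 6.57 with palmitic, 6.26 with oleic and 7.33 with linoleic acid. All 3 were dim, and with dim values set to the median Mir146 differed by -0.10 and Mir30b by 0.42. Mir30b was a kept gene only through its palmitic acid value, the same value that places it among the higher genes. RefSeq (GRCm38.p6) gives these mature sequences, with bases 2 to 8, the seed, in capitals:
mmu-miR-146a-5p, chr11:43374435-43374456, reverse strand: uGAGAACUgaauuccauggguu
mmu-miR-350-3p, chr1:176772342-176772363, reverse strand: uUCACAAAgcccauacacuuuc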
